A study of Arabidopsis thaliana with 10 samples.

Results

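The microRNA genes described here are every gene that the locus tables class as miRNA, except MIR845a and the members of the MIR156, MIR159, MIR162, MIR167, MIR168, MIR173, MIR319, MIR390, MIR399 and MIR403 families. This rule used no measured value, but was set with earlier results of these data known. It left 145 of the 177 microRNA genes with a value in any library, out of 33271 loci of all classes, and the 145 genes fell into 95 families. Small RNAs were sequenced from Arabidopsis pollen of the accession Col-0 in 5 groups of 2 libraries each. Unsorted pollen came from wild-type plants (WT Col-0), from plants carrying pLAT52::RTL1, whose promoter drives expression in the late microspore and the vegetative cell, and from plants carrying pMGH3::RTL1, whose promoter drives expression in the male germline. Each RTL1 library came from a different transgenic line, so the spread within a construct includes the spread between lines. Pollen sorted by fluorescence came from plants heterozygous for both a pLAT52::DsRed reporter (FTL1230) and the Pol IV mutant allele nrpd1a-3. The red pollen was taken as wild type (WT FTL) and the pollen without red fluorescence as mutant (nrpd1a-3 FTL), so both genotypes came from pollen of heterozygous plants in which the mutant allele segregated. The labels call the 2 libraries of each group biological replicates. For WT Col-0 and the sorted groups the sources used here do not say whether separate plants were taken, so p-values measure the spread between these libraries.

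MicroRNAs are cut by DICER-LIKE1 from a folded transcript of their own gene, mostly as RNAs of 21 nt or 22 nt, and are loaded into ARGONAUTE proteins. Plant microRNAs pair with their targets along most of their length, and mismatches are tolerated least near the 5′ end, in and around the seed (bases 2 to 8). Small interfering RNAs are cut from long double-stranded RNA instead. RTL1 (RNASE THREE-LIKE 1) is an RNase III enzyme that cleaves double-stranded RNA and prevents siRNA production when overexpressed, and Pol IV makes the transcripts from which DICER-LIKE3 cuts siRNAs of 24 nt. The comparisons therefore ask how far the microRNA genes stay outside what these perturbations do to siRNAs.

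Values are given as signal: the authors divided each read by its number of places in the genome and scaled it by a library total. The column is named RPM, but its values summed to 3743340 to 8672910 over the loci of a library, so a value is not a share of the reads and the total behind it is not certain. Signal from 18 nt to 30 nt was summed for each gene. Each library gave between 172182 and 1189650 hit-weighted reads at the 145 genes. Their share of all listed signal was 9.52% to 11.5% in the unsorted libraries and 2.16% to 4.74% in the sorted ones. The summed signal of all loci was not equal between libraries. It was 3743340 and 6817520 in WT Col-0, 5215730 and 6641140 in pLAT52::RTL1 and 8672910 and 8060210 in pMGH3::RTL1 pollen, so replicate 1 of WT Col-0 stood lowest. The 2 libraries of each sorted genotype also stood apart from each other. Of 84 genes tested in sorted pollen, 56 were higher in both libraries numbered 1 than in both numbered 2, against 17% of all loci, and 16 were lower, against 8.01%. Every one of the 7 pollen and 5 sperm cell genes used as a check of the tissue had small RNA signal in each group, but so did all 6 green tissue genes. Summed signal was 5836 to 17084 at the pollen genes, 59.5 to 143 at the sperm cell genes and 25.4 to 494 at the green tissue genes, which exceeded the sperm cell genes in every unsorted library. In sorted pollen the green tissue genes summed to 159 and 32.2 in WT FTL and to 254 and 25.4 in nrpd1a-3 FTL (replicates 1 and 2). The pollen genes summed to 8063 and 6495 in WT FTL and to 17084 and 16117 in nrpd1a-3 FTL. Their part in the differences between sorted libraries was not tested. In whole pollen, fewer cells of a type and less RNA per cell cannot be told apart.

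The most abundant genes are shown by the mature sequences that RefSeq annotates for them (TAIR10.1 build), because these few genes hold most of the signal. The deposited values give the length of the RNAs at a gene but not their sequence, so no listed RNA was measured by itself. The seed is in capitals. All 145 genes matched an annotated locus and hold 210 mature sequences, of which 169 are distinct, and 133 of the 210 start with U.
miR161.1: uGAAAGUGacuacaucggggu
miR161.2: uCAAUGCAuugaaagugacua
miR773a: uUUGCUUCcagcuuuugucuc
miR160a-5p: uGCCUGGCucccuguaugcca
miR165a-3p: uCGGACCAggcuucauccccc
miR398b-3p: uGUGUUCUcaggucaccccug
miR845b: uCGCUCUGauaccaaauugaug
miR778: uGGCUUGGuuuauguacaccg
miR829-5p: aCUUUGAAgcuuugauuugaa
miR829-3p.1: aGCUCUGAuaccaaaugauggaau
miR829-3p.2: cAAAUUAAagcuucaagguag
miR774a: uUGGUUACccauauggccauc
miR158a-3p: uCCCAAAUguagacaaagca
miR158b: cCCCAAAUguagacaaagca

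The sequence miR160a-5p occurs 3 times in the genome, once in each of MIR160a, MIR160b and MIR160c, and miR165a-3p and miR398b-3p each occur in 2 genes. A read of such a sequence was divided between its genes, so near-equal values of MIR160a, MIR160b and MIR160c, of MIR165a and MIR165b, or of MIR398b and MIR398c do not measure the genes separately. The seed of miR165a-3p is shared by 9 genes, the 2 MIR165 and 7 MIR166 genes. miR158a-3p and miR158b have the same seed. miR829-3p.1 and miR845b belong to different families but share the stretch GCUCUGAUACCAAAU, 15 bases long. The miR845 family is known to match the primer binding sites of LTR retrotransposons.

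Signal was concentrated in few genes. The 5 highest genes held 55.5% of the signal of the 145 genes in WT Col-0 and 67.9% in WT FTL pollen, and the 15 highest held 89.6% and 90.8%. In WT Col-0 pollen 12 genes had a mean above 10000 and 45 a mean under 10. The highest was MIR161 (chromosome 1, 17825685 to 17825857, plus strand), which targets transcripts of pentatricopeptide repeat proteins. Its signal was 111697 and 147295 in WT Col-0, 95823 and 110539 in pLAT52::RTL1, 203800 and 237430 in pMGH3::RTL1, 67520 and 114600 in WT FTL and 153411 and 68722 in nrpd1a-3 FTL pollen. It was the highest of the 145 genes in 9 of 10 libraries, and among unsorted libraries only those of pMGH3::RTL1 were above both WT Col-0 libraries.

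MIR773a (chromosome 1, 13067251 to 13067335, plus strand) came next, and its microRNA is known to target a DNA methyltransferase gene of the MET1 family. Its signal was 43119 and 50319 in WT Col-0, 91077 and 114428 in pLAT52::RTL1 and 91259 and 78092 in pMGH3::RTL1 pollen. All RTL1 libraries lay above WT Col-0. In sorted pollen it was 53994 and 6064 in WT FTL and 34964 and 5261 in nrpd1a-3 FTL, so the libraries numbered 1 exceeded those numbered 2 in both genotypes. MIR845b read 24313 and 22655 in WT Col-0, 51507 and 56657 in pLAT52::RTL1 and 49153 and 34990 in pMGH3::RTL1 pollen, again with no overlap between either construct and WT Col-0. Neither gene passed the adjusted test against WT Col-0 for either construct.

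The families that control development followed. The 3 MIR160 genes, whose microRNA targets AUXIN RESPONSE FACTOR transcripts, summed to a mean signal of 113520 ± 70047 (SD, n = 2) in WT Col-0, or 21.7% of the signal of the 145 genes. The MIR165 and MIR166 genes, which restrict HD-ZIP III transcription factors, summed to 58093 ± 32202 and 25833 ± 12464. Replicate 2 of WT Col-0 was the higher one for each of these families, which gives the wide SDs. Among genes tied to nutrients and copper, the 3 MIR398 genes, which target copper/zinc superoxide dismutases, summed to 51520 ± 25112. MIR778, which targets histone methyltransferase transcripts of the SUVH class, read 15700 and 11397 in WT Col-0. MIR829, with 11503 and 10564, MIR774a, with 7559 and 11594, MIR158a, with 4400 and 9931, and MIR158b, with 2645 and 5451, completed the 15. In WT Col-0 pollen both libraries of MIR161 lay above MIR773a and both of MIR845b above MIR778, and the ranges of the other neighbours in this order overlapped.

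**Figure D1:**
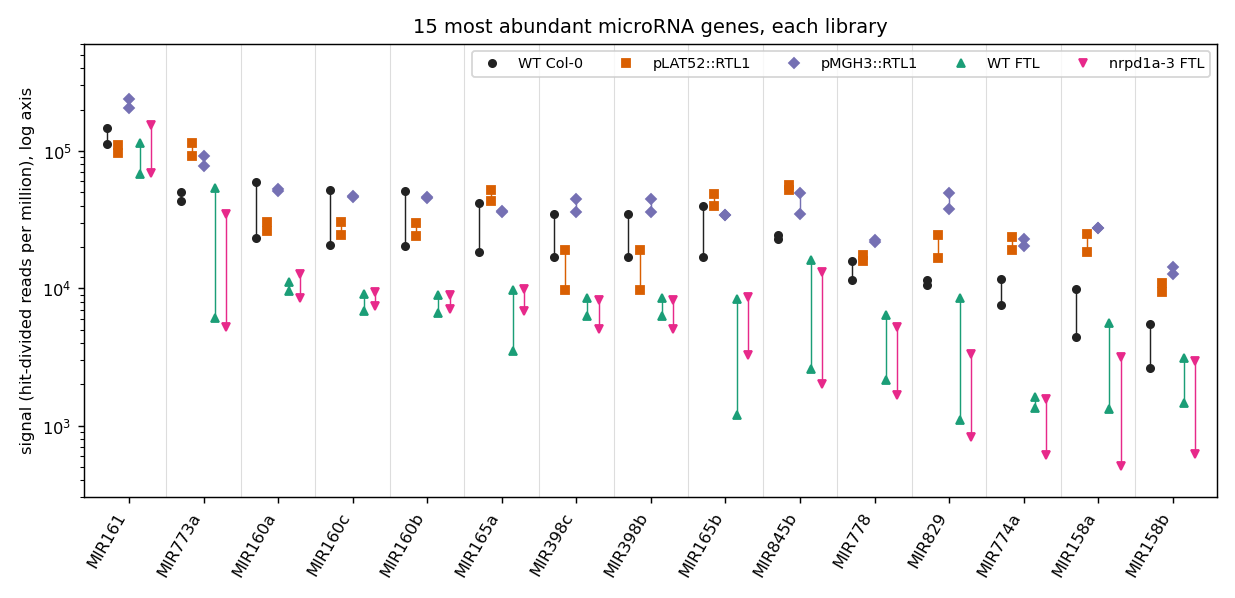
Signal of the 15 most abundant microRNA genes (log axis) in each of the 10 libraries, as points joined by a line within a group of 2. MIR161 stands highest, between 67520 and 237430, and the 2 sorted libraries of one genotype lie far apart for MIR773a, MIR165b, MIR845b and MIR829.

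RNA length was that of microRNAs at most genes. RNAs of 20 nt to 22 nt made up 97.3% to 99.1% of the signal of the 145 genes in every library. The share at 23 nt and 24 nt was 0.154% to 0.587%. At 114 genes the unsorted libraries averaged 12 hit-weighted reads or more. Of these, 69 had 21 nt as their commonest length in the wild-type libraries, 19 had 22 nt, 12 had 20 nt and 10 had 24 nt. The commonest length was an annotated mature length for 90 of the 114. MIR773a was an exception among abundant genes, since 96.6% of its signal was at 22 nt while its annotated sequence has 21 nt. MIR845b was at 22 nt for 98.4%, as annotated. At MIR829, 97.9% was at 21 nt and 1.0% at 23 nt and 24 nt, so its annotated 24-nt RNA, which shares the stretch with miR845b, was a small share of its signal. MIR836 is annotated with an RNA of 24 nt, yet 68.8% of its signal was at 21 nt.

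At 8 genes the 23-nt and 24-nt RNAs exceeded those of 20 nt to 22 nt, and all 8 were of low signal. The 6 highest were MIR863, MIR405a, MIR401, MIR416, MIR405d and MIR404. The mature sequences of the 3 with enough reads for a test in sorted pollen are shown because their annotated lengths, 21 nt for miR863-5p, miR863-3p and miR401 and 24 nt for miR405a, can be set against the measured ones.
miR863-5p: uUAUGUCUuguugaucucaau
miR863-3p: uUGAGAGCaacaagacauaau
miR405a: aUGAGUUGggucuaacccauaacu
miR401: cGAAACUGgugucgaccgaca

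MIR863 (chromosome 4, 7846597 to 7846899, plus strand) lies in the non-coding transcript AT4G13495, which also holds MIR850. It had 84.3% of its signal at 23 nt and 24 nt, whereas MIR850 had 77.2% at 22 nt. MIR401 (chromosome 4, 5020237 to 5020486, minus strand) lies opposite a pseudogene and had 68.4% at 23 nt and 24 nt. MIR405a (chromosome 2, 9634957 to 9635113, minus strand) had 58.7%, and its annotated 24-nt sequence occurs 4 times in the genome, in 3 of the genes described.

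**Figure D2:**
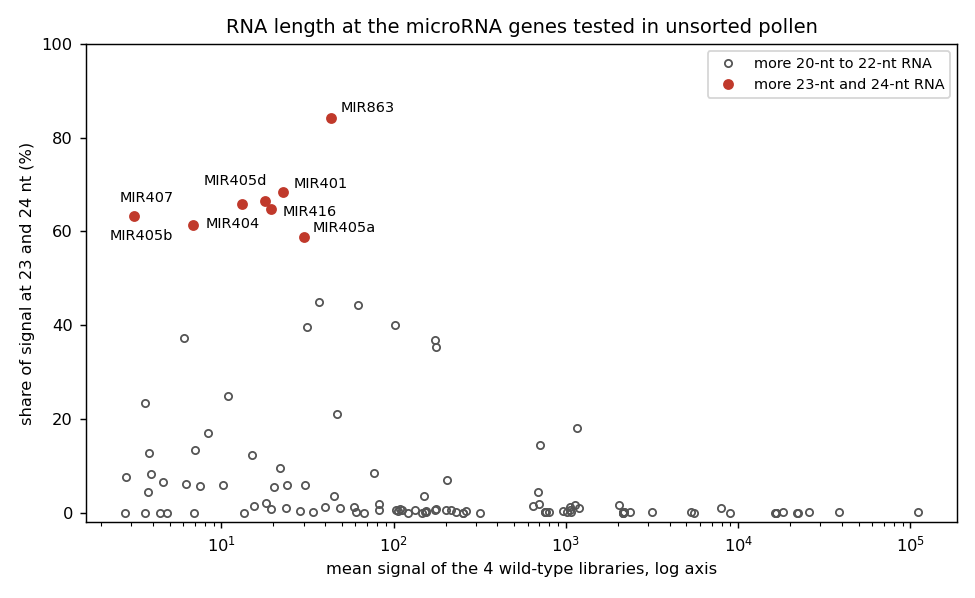
Share of signal at 23 nt and 24 nt against mean signal of the 4 wild-type libraries (log axis), 1 point for each of 114 genes. The 8 filled points, led by MIR863 at 84.3%, are the genes with more 23-nt and 24-nt than 20-nt to 22-nt RNA, and all lie at a mean signal of 43.3 or less.

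Changes were tested with limma on log2(signal + 1), so a log2 change understates that of a low gene, and p-values were adjusted by the Benjamini-Hochberg method over all loci tested. A gene is called where its adjusted p is under 0.05. In unsorted pollen 114 of the 145 genes and 11553 loci passed the filter of 12 reads, and 31 genes did not. Both RTL1 comparisons use the same WT Col-0 libraries.

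In pLAT52::RTL1 pollen 11 of the 114 genes rose and none fell by the limma test, against 1.63% of all loci called higher and 0.156% called lower. At an unadjusted p under 0.05, 52 genes were higher, against 12.1% of all loci, and 10 lower (8.77% of the 114), against 6.82%. The median log2 change was 0.80 over the 114 genes and 0.17 over all loci. Both pLAT52::RTL1 libraries were above both WT Col-0 libraries at 76 genes, or 66.7%, against 32% of all loci, and below them at 14, or 12.3%, against 20.6%. MIR835, hosted by the protein-coding gene AT1G76065 on chromosome 1, changed most among the genes called. Its signal was 159 and 128 in WT Col-0, 702 and 659 in pLAT52::RTL1 and 359 and 386 in pMGH3::RTL1 pollen. It rose by 2.24 on the log2 scale (SE 0.22, adjusted p = 0.0055, limma). In wild type its commonest RNA was of 24 nt, at 34.3% of signal, with 58.3% at 20 nt to 22 nt.

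MIR777 read 34.8 and 43.9 in WT Col-0 and 141 and 149 with pLAT52::RTL1, which is 1.86 on the log2 scale (SE 0.23). MIR860 read 27.5 and 23.3 against 70.6 and 90.6, a change of 1.62. MIR846, whose microRNAs target jacalin lectin transcripts, read 118 and 128 against 329 and 388, a change of 1.54. In each of the 3 the groups were well apart. MIR859, known to target F-box transcripts, read 1642 and 1861 against 4807 and 5284 and was the most abundant gene called. MIR850, MIR853, MIR870 and MIR781a rose by 1.52, 1.37, 1.34 and 1.19. The remaining genes called were MIR396a and MIR396b, at 1.31 and 1.21, whose microRNAs restrict GROWTH-REGULATING FACTOR transcripts and share a seed. The sequences of the genes that led this comparison and the next are shown with it.
miR396a-5p: uUCCACAGcuuucuugaacug
miR396b-5p: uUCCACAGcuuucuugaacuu
miR835-3p: uGGAGAAGauacgcaagaaag
miR860: uCAAUAGAuuggacuauguau
miR846-3p: uUGAAUUGaagugcuugaauu

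By lists of families, 2 of 38 development genes tested were called higher in pLAT52::RTL1 pollen, and the median of the 38 log2 changes was 0.78. None of 12 nutrient and copper genes (median 0.56), none of 4 genes tied to chromatin and transposable elements (median 1.17) and none of 3 genes that trigger secondary siRNAs or target PPR and NLR genes (median 0.57) were called. The other families gave 9 of 57, with a median of 1.09. Since 1.63% of all loci were called higher, no call in lists of 12, 4 or 3 genes does not set them apart from other loci.

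Some genes were lower in both pLAT52::RTL1 libraries without passing the adjusted test. MIR843 read 853 and 1099.7 in WT Col-0 and 367 and 31.5 with pLAT52::RTL1, a log2 change of -3.15 (SE 0.90, adjusted p = 0.13, limma), and the 2 lines differed widely from each other. MIR823, whose microRNA targets the CHROMOMETHYLASE3 transcript, read 1095 and 1120 against 553 and 543, a change of -1.01 (SE 0.24, adjusted p = 0.086, limma). MIR157a and MIR157b, whose microRNA targets SPL transcription factors, changed by -1.28 and -1.25. MIR827 and MIR2111b, both known to respond to phosphate starvation, changed by -1.02 and -2.68, the latter from 45.0 and 8.7 to 6.3 and 0.5.

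The count depended on single libraries. All or nearly all calls of these genes were lost without either pLAT52::RTL1 library, and most without either pMGH3::RTL1 library. More genes and more loci were called without either WT Col-0 library, most of all without replicate 2. The median log2 change of the microRNA genes was 0.66 without replicate 1 of WT Col-0 and 1.17 without replicate 2, against 0.06 and 0.22 over all loci. Scaling to the summed signal gave 9 genes higher and 4 lower, against 180 and 37 of the 11553 loci. The medians were then 0.59 over the 114 genes and -0.04 over all loci. Scaling to the summed signal of microRNA genes gave 5 and 7, against 227 and 178 loci.

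In pMGH3::RTL1 pollen 15 of the 114 genes rose and none fell by the limma test, against 0.476% of all loci called higher and 0.961% called lower. At an unadjusted p under 0.05, 61 genes were higher and 0 lower, against 14.7% and 7.54% of all loci. With limma-voom on hit-weighted reads 17 were called higher and 0 lower, against 0.874% and 0.831%. The median log2 change was 1.05, against 0.08 over all loci. Both libraries were above WT Col-0 at 84 genes, or 73.7%, against 29.3% of all loci. At MIR416 alone, of 114 genes, both were below it, or 0.877%, against 22.5%.

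MIR860 changed most, from 27.5 and 23.3 in WT Col-0 to 106 and 134 in pMGH3::RTL1 pollen, a log2 change of 2.19 (SE 0.25, adjusted p = 0.0074, limma). MIR858a, whose microRNA targets MYB factors of flavonol synthesis, went from 333 and 399.99 to 2189 and 1044, a change of 2.05. MIR172e went from 107 and 235 to 639 and 614, a change of 1.97. Its microRNA of 21 nt targets APETALA2-type factors, but 53.8% of its wild-type signal was at 20 nt and 29.5% at 21 nt. The annotated RNA of 20 nt, miR172e-5p, is another RNA of this gene and has the same sequence in MIR172b. The libraries did not overlap at any of the 3, though the 2 MIR858a lines differed from each other.

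MIR846 rose by 1.87, to 477 and 427. MIR396b rose by 1.66, to 1087 and 1227, and MIR396a by 1.46, to 404 and 368. MIR171b, whose microRNA targets HAIRY MERISTEM factors, rose by 1.57, from 1394 and 1654 to 3991 and 5090, and is among the most abundant genes called, with MIR859 (change 1.59, to 4804 and 5796). The sequence of miR171b-3p is the same in MIR171c, so its reads were divided and the rise cannot be assigned to MIR171b alone. MIR870, MIR781a, MIR865 and MIR844 rose by 1.59, 1.54, 1.52 and 1.42. The other 3 genes called were MIR833a, MIR835 and MIR822, at 1.39, 1.37 and 1.18. MIR822 had 36.8% of its wild-type signal at 23 nt and 24 nt.

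By lists, 4 of 38 development genes were called higher in pMGH3::RTL1 pollen, and the median of the 38 log2 changes was 0.86. Of the 38 changes, 37 were above 0. Of all 114 microRNA genes only 5 were below 0, so this does not set the list apart. The share of all loci above 0 was not counted. Of the other lists, 0 of 12 nutrient and copper genes (median 0.67), 0 of 4 chromatin and transposable element genes (median 0.84) and 0 of 3 trigger genes (median 0.78) were called, and 11 of 57 genes of other families (median 1.18). With 0.476% of all loci called higher, the lists of 12, 4 and 3 genes are too small for their lack of calls to set them apart.

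The summed signal of the whole library was also higher in pMGH3::RTL1 than in WT Col-0 pollen, as given above. So were the sums over the marker genes of green tissue (494 and 431 against 152 and 383) and of pollen (15818 and 12946 against 5836 and 10909), and their part in the result was not tested. Scaled to that sum, 4 genes were called higher and 0 lower, against 15 and 641 of the 11553 loci. The median over the 114 genes was then 0.33 and that over all loci -0.63. The microRNA genes were thus above the other loci on either scale, while the size of their rise differed between scales. All calls of these genes were lost without either pMGH3::RTL1 library, and most without either pLAT52::RTL1 library. More genes and more loci were called without either WT Col-0 library, most of all without replicate 2. The median log2 change of the microRNA genes was 0.85 without replicate 1 of WT Col-0 and 1.25 without replicate 2, against 0.02 and 0.09 over all loci.

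**Figure D3:**
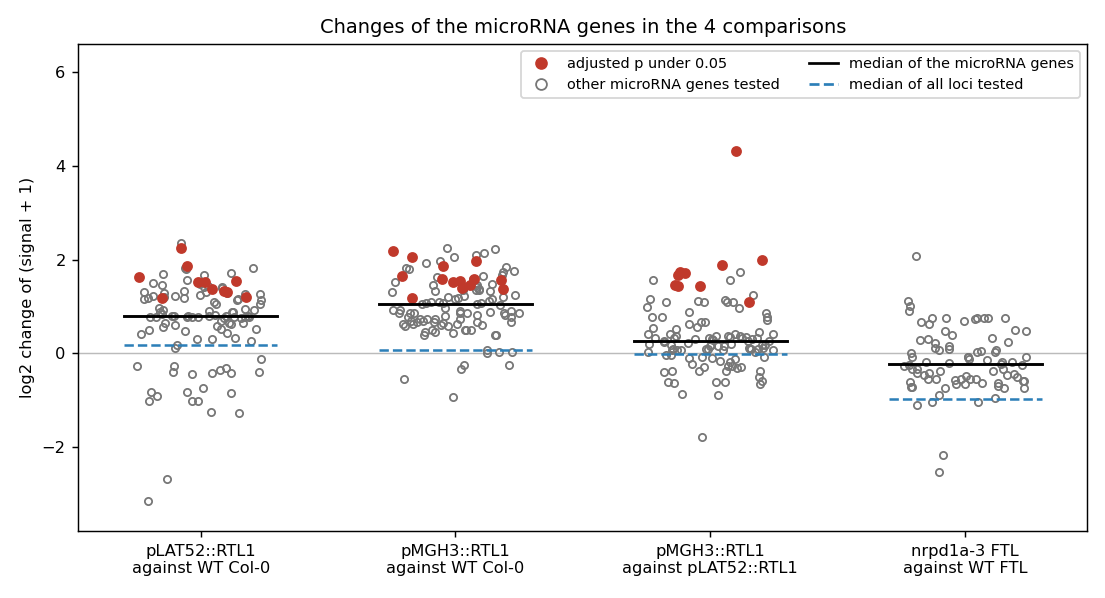
Log2 change of each microRNA gene tested in the 4 comparisons (114, 114, 114 and 84 genes). Filled points have an adjusted p under 0.05 (11, 15, 10 and 0 genes), and the black line, the median of the microRNA genes, lies above the dashed line, the median of all loci, in each comparison.

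The direct comparison of the 2 constructs asked where expression in the germline and in the vegetative cell left different levels. With the germline promoter 10 of the 114 genes were higher than with the vegetative promoter and none was lower by the limma test, against 1.06% of all loci called higher and 2.5% called lower. At an unadjusted p under 0.05 there were 23 higher and 5 lower genes, against 9.81% and 13.5% of all loci. The median log2 difference was 0.27, against -0.01 over all loci. At 51 genes, or 44.7%, both pMGH3::RTL1 libraries were higher, against 29% of all loci, and at 14 genes, or 12.3%, both were lower, against 30.1%. The 10 genes hold 8 sets without a shared mature sequence, since MIR157a and MIR157b share one, as do MIR172c and MIR172d. Their mature sequences are shown because these are the genes at which the constructs differed.
miR843: uUUAGGUCgagcuucauugga
miR830-5p: uCUUCUCCaaauaguuuagguu
miR830-3p: uAACUAUUuugagaagaagug
miR836: uCCUGUGUuuccuuugaugcgugg
miR157a-5p: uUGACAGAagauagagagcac
miR852: aAGAUAAGcgccuuaguucug
miR172c: aGAAUCUUgaugaugcugcag
miR823: uGGGUGGUgaucauauaagau

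MIR843 (chromosome 3, 17742098 to 17742302, plus strand) differed most. It read 2058 and 2315 in pMGH3::RTL1 against 367 and 31.5 in pLAT52::RTL1 pollen, a log2 difference of 4.32 (SE 0.90, adjusted p = 0.043, limma), with WT Col-0 between them. MIR823 read 1331 and 1670 in pMGH3::RTL1 against 553 and 543 in pLAT52::RTL1 pollen, a difference of 1.44, with WT Col-0 again between. MIR157a read 966 and 960 against 409 and 204, a difference of 1.73, and MIR157b 968 and 973 against 412 and 213, a difference of 1.71. For both, WT Col-0 lay between the constructs, at 696 to 716 for MIR157b.

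MIR836 read 122 and 108 against 35.02 and 26.2 (difference 1.89), and MIR852 128 and 110 against 52.7 and 25.3 (difference 1.67). WT Col-0 lay between the constructs at both. At the other 4 genes pLAT52::RTL1 pollen overlapped WT Col-0 or lay close to it. MIR172c read 360 and 515 against 159 and 154 (difference 1.45), with 181 and 238 in WT Col-0, and MIR172d differed by 1.45 as well. MIR830 read 208 and 253 against 82.1 and 39.1 (difference 2.00), with 65.4 and 88.9 in WT Col-0. MIR844 read 193 and 153 against 76.9 and 83.4 (difference 1.09), with 64.5 and 62.9 in WT Col-0.

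**Figure D4:**
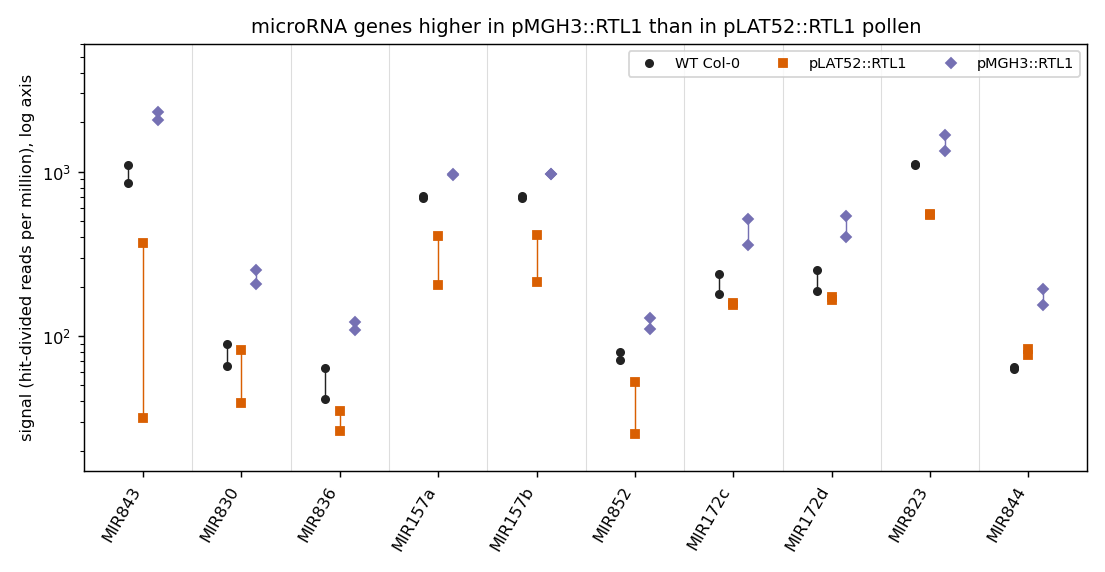
Signal (log axis) in each of the 6 unsorted libraries at the 10 genes called higher with the germline construct. The pMGH3::RTL1 libraries are the highest at each gene, and the 2 pLAT52::RTL1 lines lie widest apart at MIR843, at 367 and 31.5.

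By lists, 4 of 38 development genes (median log2 difference 0.28), 1 of 4 chromatin and transposable element genes (median 0.05) and 5 of 57 genes of other families (median 0.21) were called higher with the germline construct, and 0 of 12 nutrient and copper genes (median 0.60) and 0 of 3 trigger genes (median 0.19). With 1.06% of all loci called higher, the lists of 12 and 3 genes are too small for their lack of calls to set them apart. In the other direction, MIR169b, MIR850 and MIR835 had log2 differences of -1.79, -0.89 and -0.87 between pMGH3::RTL1 and pLAT52::RTL1 pollen, with adjusted p of 0.094, 0.12 and 0.076 by limma. All calls of these genes were lost without replicate 2 of pLAT52::RTL1 or without either pMGH3::RTL1 library. Some were lost without replicate 1 of pLAT52::RTL1. More genes and more loci were called, in both directions, without either WT Col-0 library. Scaled to the summed signal, 5 genes were called higher and 7 lower, against 62 and 1079 of the 11553 loci. The median over the 114 genes turned to -0.24, against -0.50 over all loci.

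In sorted pollen 84 of the 145 genes and 7366 loci were tested. No microRNA gene was called in nrpd1a-3 FTL against WT FTL pollen by limma, with 0 higher and 2 lower at an unadjusted p under 0.05 (41% and 2.16% of all loci were lower and higher at that threshold) and 0 called by limma-voom, while 21.5% of all loci were called lower and 0.0679% higher. The median log2 change was -0.22 over the 84 genes and -0.97 over all loci. Both mutant libraries were below both WT FTL libraries at 3 genes, or 3.57%, against 50.7% of all loci. They were above them at 3 genes, or 3.57%, against 17%. A gene whose libraries numbered 1 were both above or both below those numbered 2 could not separate by genotype. This held for 56 and 16 of the 84 genes, against 17% and 8.01% of all loci. The shares of microRNA genes and of all loci that separated by genotype are therefore not directly comparable. The study sorted both genotypes in the same runs, but the labels do not say that a replicate number marks a run. Compared within each number, 36 of the 84 genes were lower in the mutant in both, against 57.8% of all loci. Higher in both were 18 genes, against 25.5% of all loci. The 18 include MIR165a, MIR165b and MIR166a to MIR166g. The MIR165 genes share a mature sequence, as do the MIR166 genes, so their divided reads do not measure the genes separately. By lists, the median was -0.03 for 30 development genes, -0.05 for 6 nutrient and copper genes, -0.45 for 4 chromatin and transposable element genes, -0.16 for 4 trigger genes and -0.38 for 40 genes of other families. These directions depend on the scaling. With libraries scaled by their median ratio over tested loci, the median was 0.97 over the 84 genes and 0.17 over all loci, and no gene was called.

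The 2 genes with an unadjusted p under 0.05 were among those with more 24-nt RNA. MIR401 read 25.2 and 11.96 in WT FTL and 3.7 and 1.2 in nrpd1a-3 FTL pollen, a log2 change of -2.54 (SE 1.00, adjusted p = 0.083, limma). MIR405a read 19.4 and 16.0 against 5.2 and 1.7, a change of -2.18 (SE 0.89, adjusted p = 0.09, limma). Both genes passed the threshold in 5 of 11 other settings, which were 3 of the 4 other scalings, the fit of all 10 libraries and the replicate block (adjusted p = 0.00092 and 0.0022, limma), and also without replicate 1 of nrpd1a-3 FTL. Neither gene had overlapping libraries, and their mutant values rest on 1.74 to 5.19 hit-weighted reads. At MIR401 signal was lower at 23 nt and 24 nt (18.7 and 8.87 against 2.22 and 1.10) and at 20 nt to 22 nt (5.57 and 2.70 against 1.44 and 0.07).

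Of the 8 genes with more 23-nt and 24-nt RNA, 6 had both nrpd1a-3 FTL libraries below both WT FTL libraries, against 50.7% of all loci tested. The WT FTL libraries were among those that chose the 8, and only 3 of the 8 had enough reads for the test. The share over all loci covers only loci with enough reads, so it is not a like background. MIR405a, MIR405b and MIR405d, all among the 6, share a mature sequence, so their divided reads do not measure the genes separately. MIR416 read 12.01 and 19.3 in WT FTL against 4.0 and 3.4 in nrpd1a-3 FTL pollen, and MIR405d 14.6 and 7.0 against 3.2 and 1.1. MIR404 read 4.0 and 7.2 against 3.0 and 3.4, which rest on 3 to 6 reads and were not distinguishable at this depth. MIR863 did not follow: it read 52.4 and 0.6 in WT FTL and 38.8 and 1.7 in nrpd1a-3 FTL pollen, so its libraries sorted by replicate number and not by genotype.

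**Figure D5:**
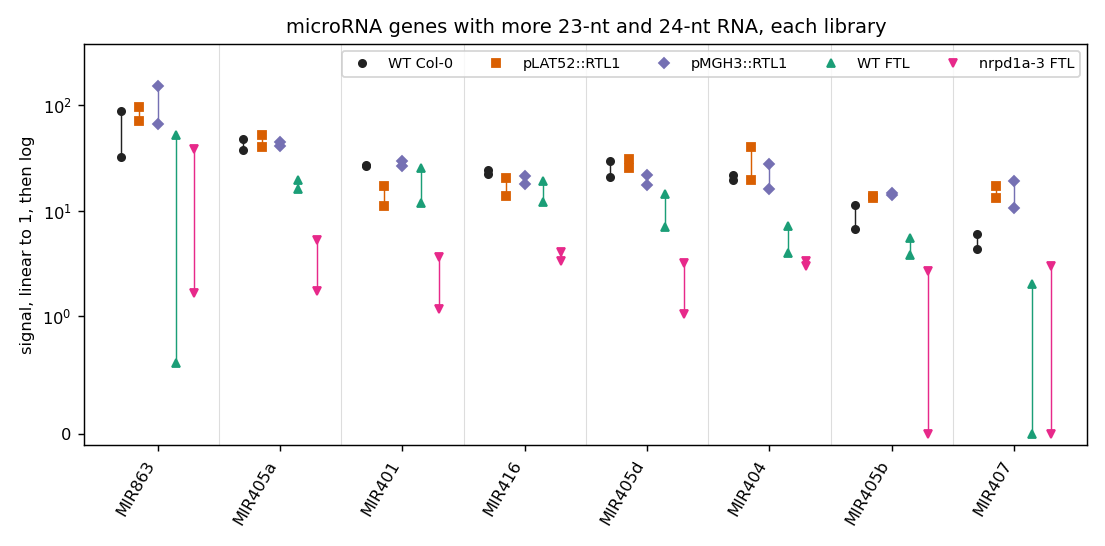
Signal (linear up to 1, then log) in each library at the 8 genes with more 23-nt and 24-nt RNA. MIR405a, MIR401, MIR416 and MIR405d are lower in both nrpd1a-3 FTL libraries than in both WT FTL libraries, and MIR863 is not.

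No other gene tested had an unadjusted p under 0.05 between the sorted genotypes in the fit without a replicate block. With the block, MIR158a was also called lower, at -1.11 (adjusted p = 0.023, limma). MIR408 and MIR396b were then called higher, at 1.13 and 2.08 (adjusted p = 0.028 and 4.4e-05, limma). Of all 7366 loci, 3542 were called lower and 685 higher with the block. A change of sizeable extent could have gone unseen, since the SE of MIR161 was 1.29 on the log2 scale and that of MIR773a 1.36. The direction depended on single libraries. Without replicate 1 of nrpd1a-3 FTL the median log2 change was -0.87 over the microRNA genes tested and -1.65 over all loci. Without replicate 2 of nrpd1a-3 FTL it was 0.48 and -0.85. Without replicate 1 of WT FTL it was 0.20 and -0.38, and without replicate 2 of WT FTL -0.70 and -1.24.

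Among the 31 genes below the filter in unsorted pollen, MIR825 was the 1 gene with enough reads in sorted pollen. Its signal was 40.0 and 9.6 in WT FTL and 28.2 and 6.0 in nrpd1a-3 FTL, against 4.3 and 3.3 in WT Col-0 pollen. MIR828, whose microRNA targets MYB transcripts, was listed at 0 in both WT Col-0 and all 4 sorted libraries, which allows a signal of up to 1.29 and 3.25 in the WT Col-0 libraries by the 3 reads that a value of 0 allows. It read 8.6 and 3.8 in pLAT52::RTL1 and 2.1 and 1.5 in pMGH3::RTL1 pollen. The MIR169c, MIR169e and MIR169h to MIR169l and MIR169n genes, of the family that targets NF-YA factors, and MIR395a, MIR395d and MIR395e, which respond to sulfate, were among the genes with too few reads. These limits cover counting error only.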

How the data were processed

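Small RNAs of pollen were sequenced in 10 libraries, 2 for each of 5 groups. By the study's methods, the authors aligned reads to the TAIR10 genome by bowtie without mismatches and counted them by locus and length. The signal values they deposited are reads divided by their number of genomic hits and scaled by a library total. Values above 30 nt, listed only in replicate 1 of both sorted groups (3704 and 2330 values), were left out, and none of them was at a gene described. The tables give no strand, so 26 genes that overlap another gene of the same strand, such as MIR835, MIR777, MIR778, MIR823, MIR844, MIR852, MIR853 and MIR860, and 12 more that overlap one of the other strand, cannot be told apart from it.

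Signal from 18 nt to 30 nt was summed by locus. Weighted reads were signal divided by the value of 1 read, which lay between 0.43 and 1.46, and loci that averaged 12 or more per library were tested. The test was limma 3.58.1 (R 4.3.3) with a variance trend, applied to log2 of the signal after a pseudocount of 1. The 6 unsorted libraries were fitted together and the 4 sorted libraries apart. The threshold was an adjusted p of 0.05 over all loci. Python 3.11.15 with SciPy 1.17.1 and pandas 2.3.3 made the tables, and the procedure was tested on simulated data. Named genes are those called, at most 12 for each direction, the 15 highest in wild-type libraries, the 6 highest with more 23-nt and 24-nt RNA, and the highest of each family list. Genes named without passing the test in the comparisons of the constructs, MIR825, MIR828, MIR833a and MIR822 were chosen after their values were seen. The genes and family lists were chosen with earlier results of these data known. Other scalings, filters, pseudocounts, lengths, models and the loss of each library were tried. Sequences and coordinates are from RefSeq TAIR10.1.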

Additional observations from a re-analysis of the deposited data

Results flagged for a closer look

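At 10 genes the effects of the constructs differed by the direct limma test of pMGH3::RTL1 against pLAT52::RTL1 pollen, which is why they are listed here. The log2 differences were 4.32 for MIR843, 2.00 for MIR830, 1.89 for MIR836, 1.73 for MIR157a, 1.71 for MIR157b, 1.67 for MIR852, 1.45 for MIR172c, 1.45 for MIR172d, 1.44 for MIR823 and 1.09 for MIR844. Both pMGH3::RTL1 libraries were above both pLAT52::RTL1 libraries at each of the 10. At MIR843 the 2 pLAT52::RTL1 lines, at 367 and 31.5, differed from each other, and the part of the line in that result was not tested. No group has enough libraries for a test of single libraries that stand apart.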

How the results depend on the processing

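All 691 log2 changes of the 36 called gene and comparison pairs under other settings kept their direction, and 353 stayed past the threshold. For pLAT52::RTL1 against WT Col-0, 11 genes higher became 5 when scaled to microRNA genes, 7 with 23 nt and 24 nt only (of 33 genes tested there, not 114, here and in the next 2 comparisons), 1 without the variance trend, 6 with the replicate block, 2 with only the 4 libraries and 0 with all 10 libraries. The 0 genes lower became 4, 7 and 9 when scaled to the summed signal, to microRNA genes and to the sum without structural RNAs. With 20 nt to 22 nt only they became 2. Over all loci, 188 higher became 227, 253, 35, 166, 81 and 55 in the order given. The 18 loci lower became 37, 178, 137 and 88. For pMGH3::RTL1 against WT Col-0, 15 higher became 4 when scaled to the summed signal and 6 with 23 nt and 24 nt only. They became 3 without the trend, 2 with only the 4 libraries and 0 with all 10. The 0 lower became 1 when scaled to microRNA genes. Over all loci, 55 higher became 15, 98, 15, 10 and 0, and 111 lower became 2215. For pMGH3::RTL1 against pLAT52::RTL1, 10 higher became 5 and 6 when scaled to the summed signal and to microRNA genes, 1 with 23 nt and 24 nt only, 2 without the trend, 16 with only the 4 libraries and 0 with all 10. The 0 lower became 7, 5 and 3 when scaled to the summed signal, to microRNA genes and to the sum without structural RNAs. With only the 4 libraries they became 1. Over all loci, 122 higher became 62, 101, 88, 81, 305 and 0. The 289 loci lower became 1079, 1526, 1084 and 398. These fits tested 11553 loci, but 7243 with 23 nt and 24 nt only, 6059 with 20 nt to 22 nt only and 10072 with all 10 libraries. Those with only the 4 libraries tested 13498, 10176 and 11227 in the order given. For nrpd1a-3 FTL against WT FTL, 0 lower became 2 under each of these 3 scalings and 4 with all 10 libraries. Over all loci 3245, 2258, 2924 and 4591 were called lower in these fits. The cause was not tested.

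Under the replicate block, nrpd1a-3 FTL pollen had 3 genes lower (MIR401, MIR405a and MIR158a) and 2 higher (MIR396b and MIR408). Of all 7366 loci tested, 3542 were called lower and 685 higher under the same block. The deviations of libraries with the same number correlated over loci at r = 0.57 between the sorted groups (0.87 over the 84 microRNA genes). Among the others r lay between -0.0023 and 0.082 over loci. Over the 114 microRNA genes r was 0.28 between WT Col-0 and pLAT52::RTL1 and 0.21 between WT Col-0 and pMGH3::RTL1. Between the constructs it was -0.10. The labels do not say that the numbers pair libraries.

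Leaving out 1 library at a time gave 0 to 47 higher and 0 to 3 lower for pLAT52::RTL1, 0 to 63 higher for pMGH3::RTL1, 0 to 16 higher and 0 to 1 lower between the constructs, and 0 to 1 higher and 0 to 16 lower for nrpd1a-3 FTL. The log2 ratio of the summed signal of the 145 genes was 0.31 for pLAT52::RTL1 (-0.0025 to 0.71 without 1 library), 0.75 for pMGH3::RTL1 (0.44 to 1.15), 0.44 between the constructs (0.33 to 0.55) and 0.03 for nrpd1a-3 FTL (-0.57 to 0.46). Scaled to the summed signal it was 0.065, -0.065 and -0.51 for the last 3, and scaled to microRNA genes -0.00062 and 0.000598 for pMGH3::RTL1 against WT Col-0 and against pLAT52::RTL1. The WT Col-0 share at 20 nt to 22 nt was 99.0% (98.9% to 99.1% without 1 library), and 95.4% when 21 nt and 22 nt alone were counted. Depth limits the 31 genes below the filter and the mutant values of the genes rich in 24-nt RNA.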
